A study of Saccharomyces cerevisiae with 10 samples.

Results

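The large-subunit ribosomal protein genes encode the proteins of the 60S subunit of the budding yeast ribosome. They were taken as the nuclear protein-coding genes of the R64 annotation whose symbol is RPL with a number and an optional A or B, together with the genes of the acidic stalk, RPP0, RPP1A, RPP1B, RPP2A and RPP2B. This gave 81 genes of 6002 nuclear protein-coding genes with a known strand, made up of 35 pairs of A and B paralogs and 11 genes present as a single copy. The location of Swc4 carrying a 13-Myc tag was mapped by chromatin immunoprecipitation and sequencing (ChIP-seq) in Saccharomyces cerevisiae grown in YPD, a rich medium, to mid-log phase at 30 °C. Tagged Swc4 was studied in wild type, yaf9Δ, eaf1Δ and swr1Δ strains, and an untagged wild type was also sampled, with 2 repeats per group. Each tagged group is represented by 1 peak list in which its repeats were merged, so there is no spread between replicates, and genotypes were compared by counts without a test. The untagged samples were not analysed here. Signal unrelated to Swc4 at these highly transcribed genes was thus not measured, and a peak below is a called peak and no more.

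Swc4 is a subunit both of SWR1, the remodeller that exchanges H2A for H2A.Z, and of the NuA4 acetyltransferase. Eaf1 is the platform on which NuA4 is assembled, Swr1 is the motor subunit of the remodeller, and Yaf9 belongs to both complexes. Ribosomal protein genes are among the most actively transcribed genes of growing yeast, most are switched on by Rap1 together with Fhl1 and Ifh1, and NuA4 is a known coactivator at their promoters. Most large-subunit proteins are encoded by a pair of paralogs left by an ancient genome duplication.

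The wild-type list held 625 nuclear peaks and the mutant lists 4522 (yaf9Δ), 2900 (eaf1Δ) and 1258 (swr1Δ). Fold here is the peak caller's enrichment of a summit over its local background, as the authors deposited it, and it ranks peaks within a list only. Its median over a whole list was 1.67 for wild type, 1.88 for yaf9Δ, 1.85 for eaf1Δ and 1.69 for swr1Δ. A promoter means the 500 bp before the annotated gene start, and positions are in bp from that start with upstream negative. Shares carry exact Clopper-Pearson 95% intervals, which cover counting error only. The depth of the libraries is not known from the peak lists. Paralogs can be nearly identical in their coding sequence, and how reads matching both copies were placed is not stated, so a peak in a coding region cannot be assigned to a copy with certainty.

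In wild-type cells the promoters of 50 of the 81 genes were overlapped by a Swc4 peak (61.7%, interval 50.3 to 72.3), where 13.0% of all protein-coding promoters were. The yaf9Δ list had 56 of them (69.1%, 57.9 to 78.9) against 40.5% of all promoters, and the swr1Δ list 49 (60.5%, 49.0 to 71.2) against 17.7%. The eaf1Δ list had 17 (21.0%, 12.7 to 31.5) against 35.2%. By this measure eaf1Δ was the list in which large-subunit promoters had a peak less often than protein-coding promoters as a whole, although it held over 4 times as many peaks as the wild-type list. The size of that difference depended on the setting. With promoters of 1000 bp the eaf1Δ share was 39.5% (32 genes, interval 28.8 to 51.0) against 45.7% of all promoters, and with the fold limited to 2 or more 12.3% (10 genes, 6.08 to 21.5) against 17.0%. With promoters of 250 bp it was 13 genes (interval 8.83% to 25.9%) against 24.0%, and with at most 1258 peaks, a setting chosen after the data were seen, 12.3% (10 genes, 6.08 to 21.5) against 20.2%. In these 4 settings the interval included the background. With every list limited to 625 peaks it was 2.47% (2 genes, 0.300 to 8.64) against 11.6%, below the background.

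**Figure D1:**
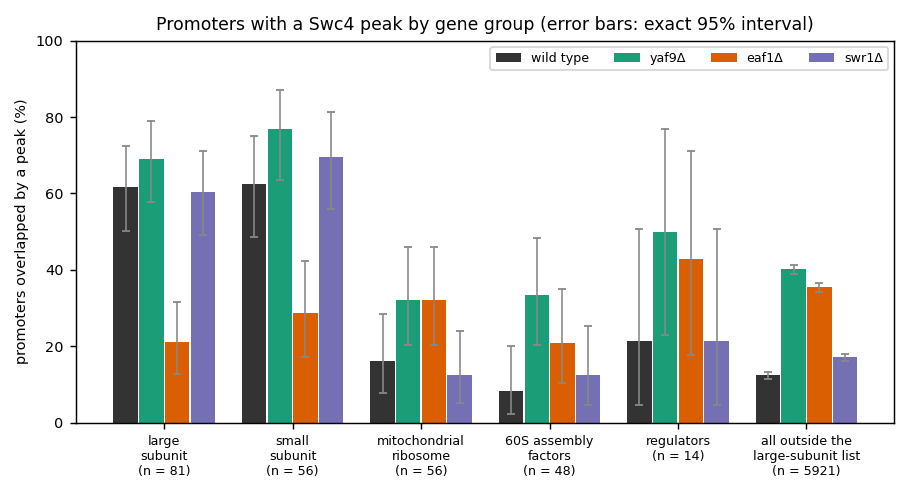
Share of promoters (500 bp) overlapped by a Swc4 peak, in percent, for 6 gene groups and the 4 peak lists; bars are shares and error bars exact 95% intervals. At large-subunit genes the eaf1Δ bar stands at 21.0% beside a wild-type bar of 61.7%, while over the genes outside that list eaf1Δ stands at 35.4% and wild type at 12.3%.

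Small-subunit genes gave similar counts. Of 56 RPS promoters, 35 had a wild-type peak (62.5%, interval 48.5 to 75.1) and 16 an eaf1Δ peak (28.6%, 17.3 to 42.2), with 43 for yaf9Δ and 39 for swr1Δ. The intervals of both subunits overlapped in each list. Mitochondrial ribosomal proteins belong to another ribosome, and 9 of their 56 promoters (16.1%) had a wild-type peak and 18 (32.1%) an eaf1Δ peak. Factors that assemble the 60S subunit had a wild-type peak at 4 of 48 promoters and an eaf1Δ peak at 10, with 16 for yaf9Δ and 6 for swr1Δ. The eaf1Δ share of these factors was 20.8% (interval 10.5 to 34.99), close to the 21.0% of large-subunit genes. Its interval also lay just below the 35.2% of all promoters. A low eaf1Δ share was thus not particular to ribosomal protein genes. Of 14 regulators of ribosomal protein transcription, among them RAP1, FHL1, IFH1 and SFP1, 3 had a wild-type promoter peak and 6 an eaf1Δ one. Of 5 dedicated chaperones of new large-subunit proteins, 1 had a promoter peak in each of these lists. For the regulators and the chaperones the intervals included the shares of all promoters, 13.0% for wild type and 35.2% for eaf1Δ.

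Summits that lay in the promoter itself were mostly found in a window near its middle. A wild-type summit was in the promoter of 33 large-subunit genes, beside 4.73% of all protein-coding promoters. For yaf9Δ it was 39 genes beside 15.4%, for swr1Δ 38 beside 8.06%, and for eaf1Δ 13 beside 11.7%. By this stricter measure the eaf1Δ share of the 81 genes (interval 8.83% to 25.9%) was not below that of all promoters. The median summit was at -228 bp for wild type, -233 bp for yaf9Δ, -236 bp for swr1Δ and -212 bp for eaf1Δ. Between -300 and -150 bp lay 29 of the 33 wild-type summits, 32 of the 39 from yaf9Δ, 30 of the 38 from swr1Δ and all 13 from eaf1Δ. Counted in the same way, by the promoter peak of highest fold of each gene, the window held outside the large-subunit list 24.7% of 251 wild-type promoter summits, 21.8% of 843 from yaf9Δ, 29.2% of 445 from swr1Δ and 19.5% of 671 from eaf1Δ. Single genes lay well apart, since wild-type summits ran from -466 bp at RPL13A to -85 bp at RPL29. The window was chosen after the positions were seen.

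**Figure D2:**
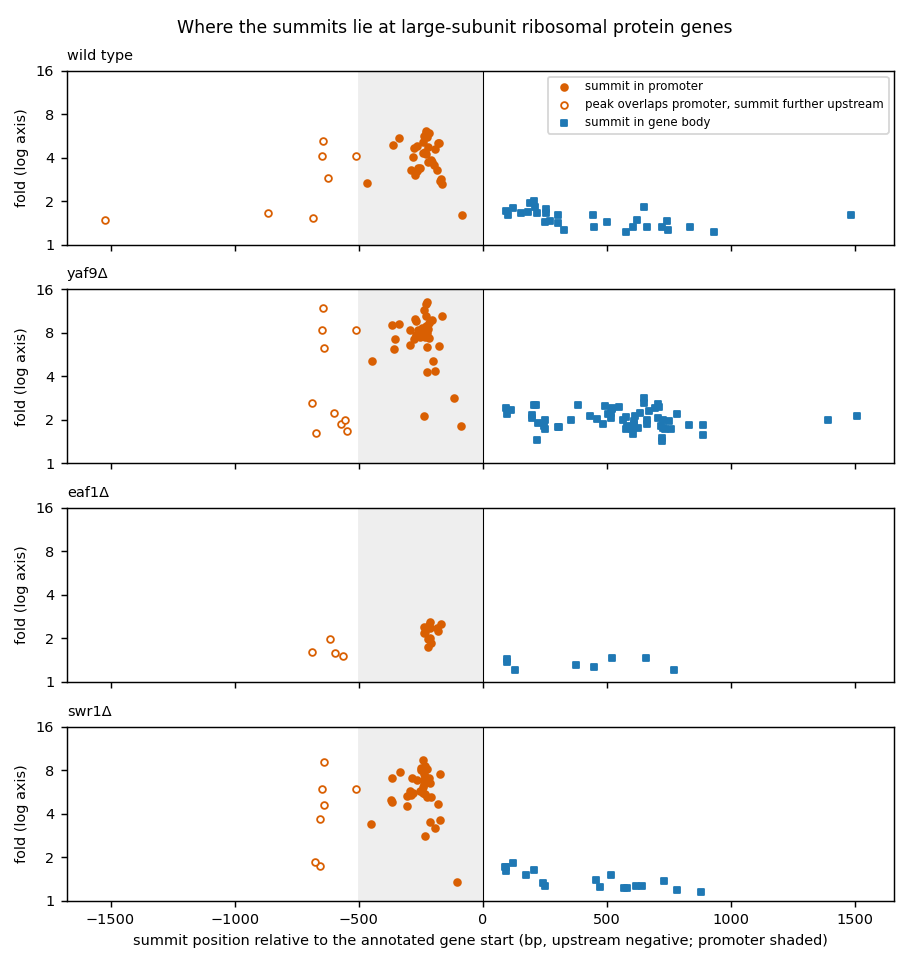
Position of the highest summit of each large-subunit gene in bp from the annotated start (x axis, promoter shaded) against the peak caller's fold (y axis, log scale), 1 panel per list. Orange points are promoter peaks, open where the summit is outside the promoter, and blue squares are summits in the gene body. The median promoter summit lies between -236 and -212 bp in the 4 panels, and the eaf1Δ panel holds 13 of them, none above a fold of 2.60.

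A few strong peaks had their summit just beyond the 500 bp, and these genes are named after their values were seen. The wild-type summit was at -644 bp for RPL24B (fold 5.22), -648 bp for RPL24A (4.09), -509 bp for RPL30 (4.09) and -624 bp for RPL32 (2.91). They count as promoter peaks and not as summits in the promoter, so the absence of RPL24 from counts of summits does not mean a weak peak. Rpl24 helps to bridge both subunits.

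Promoter peaks of large-subunit genes were among the strongest of the wild-type, yaf9Δ and swr1Δ lists. They made up 34 of the first 100 wild-type peaks by fold, 35 of those from yaf9Δ, 30 from swr1Δ and 0 from eaf1Δ. Such peaks numbered 50 of all 625 in wild type, 57 of 4522 in yaf9Δ, 48 of 1258 in swr1Δ and 17 of 2900 in eaf1Δ. The 0 for eaf1Δ is thus near their share of that list. The median fold of peaks with the summit in the promoter was 4.25 for wild type, 7.94 for yaf9Δ, 5.95 for swr1Δ and 2.26 for eaf1Δ. The median percentile of these peaks by fold within their own list was 93.4, 98.9, 94.7 and 80.2, in the same order. The best large-subunit peak had rank 4 by fold among wild-type peaks, rank 2 for yaf9Δ, rank 7 for swr1Δ and rank 260 for eaf1Δ. Ranks depend on list length, which the percentiles above allow for.

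RPL13B had the highest wild-type fold of the group. Its peak on chromosome XIII (551189–552014) had a fold of 6.08, and the mutants gave 13.12 (yaf9Δ), 8.15 (swr1Δ) and 2.34 (eaf1Δ). The summit was at -228 bp for wild type and -211 bp for eaf1Δ. This peak also overlapped the promoter of RPS16A, a small-subunit gene transcribed away from it. RPL42B, whose protein is known from cycloheximide-resistant mutants, had a fold of 5.89 in wild type (chromosome VIII, 381846–383264) and 11.57 and 9.43 in yaf9Δ and swr1Δ, the highest of the group in the latter, but no eaf1Δ peak. RPL41B, which encodes one of the shortest yeast proteins, had 5.89 in wild type (chromosome IV, 221668–222309), 10.44 and 8.50 in yaf9Δ and swr1Δ, and 2.60 in eaf1Δ, the highest there (chromosome IV, 221821–222160). RPL6A had 5.53 in wild type (chromosome XIII, 124156–125000), 12.74 and 8.02 in yaf9Δ and swr1Δ, and 2.20 in eaf1Δ. All of them were high within the same 3 lists, and in eaf1Δ were of lower rank or absent.

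**Figure D3:**
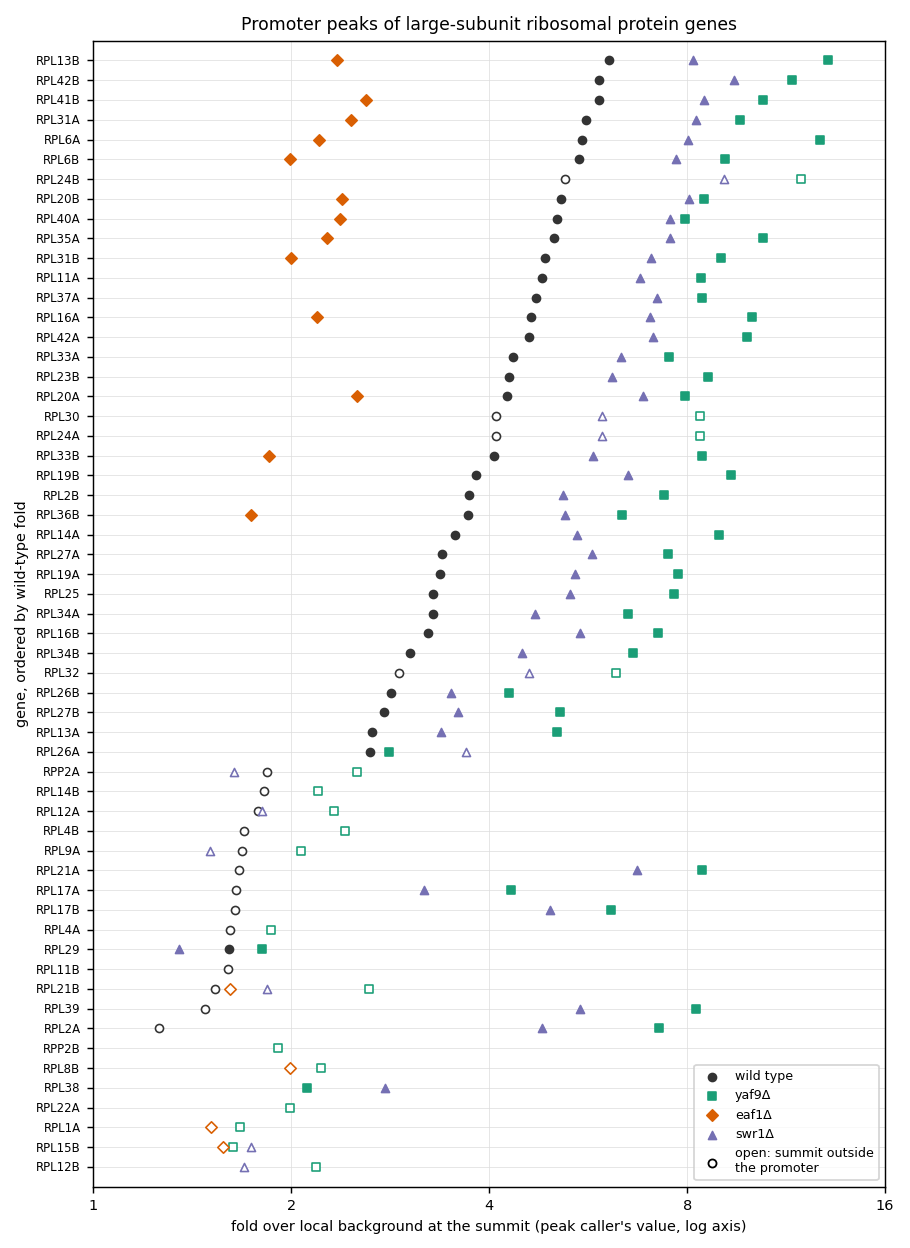
Fold over local background of the highest promoter peak of each of the 57 large-subunit genes with a promoter peak in any list (x axis, log scale), ordered by wild-type fold; markers and colours give the list, and open markers have their summit outside the promoter. The eaf1Δ markers sit between 1.51 and 2.60 and, where the summit is in the promoter, belong to genes with a wild-type fold of at least 3.72, while RPL21A, RPL17A, RPL17B, RPL39 and RPL2A have an open wild-type marker at a low fold, with the summit elsewhere, and filled yaf9Δ and swr1Δ markers at a high one.

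The 13 genes with an eaf1Δ summit in the promoter were RPL6A, RPL6B, RPL13B, RPL16A, RPL20A, RPL20B, RPL31A, RPL31B, RPL33B, RPL35A, RPL36B, RPL40A and RPL41B. All 13 also had a summit in the promoter in the other 3 lists. Outside the large-subunit list, 150 of 692 genes with any eaf1Δ summit in the promoter had a wild-type one (21.7%). The wild-type folds of the 13 ranged from 3.72 to 6.08 with a median of 5.08. The other 20 genes with a wild-type summit in the promoter ranged from 1.61 to 5.89 with a median of 3.38, so the ranges overlapped. Of the 15 highest wild-type folds 10 had an eaf1Δ summit in the promoter, of the next 15 it was 3, and of the last 3 it was 0.

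Within the 13, eaf1Δ folds ran from 1.74 to 2.60. RPL20A (chromosome XIII, 754113–754681 in wild type) had 2.52 in eaf1Δ and 4.25 in wild type. RPL31A and RPL35A encode proteins near the mouth of the exit tunnel, through which the new chain leaves the ribosome. RPL31A had 2.47 in eaf1Δ and 5.61 in wild type, and RPL35A 2.26 and 5.02. RPL40A, which encodes a ribosomal protein fused to ubiquitin, had 2.37 and 5.08. RPL36B had the lowest eaf1Δ fold, 1.74, and also the lowest wild-type fold of the 13, 3.72.

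The eaf1Δ peaks at these 13 promoters had a median width of 280 bp, under the 449.5 bp of the eaf1Δ list. They ranged from 250 to 782 bp, and RPL36B (531 bp), RPL13B (588 bp) and RPL31B (782 bp) were above that list median. At the same genes it was 558 bp for wild type (list median 558), 540 bp for yaf9Δ (366) and 458 bp for swr1Δ (412). The 13 eaf1Δ summits lay between -236 and -167 bp, and 10 of them were nearer the start than the wild-type summit. The yaf9Δ summit was nearer at 4 of the 13 and the swr1Δ summit at 3. Over the 13 the median shift in eaf1Δ was 17 bp towards the start, and 8 moved by at most 30 bp. The largest shifts were at RPL31B, from -361 bp in wild type to -211 bp in eaf1Δ, and at RPL6B, from -337 to -221 bp. At RPL31B the summit was at -364 bp for both yaf9Δ and swr1Δ, and at RPL6B at -336 and -335 bp.

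The other 4 eaf1Δ peaks that overlapped a large-subunit promoter had their summit beyond it. At RPL8B the summit was at -617 bp (chromosome XII, 49108–49509, fold 1.99), and the peak also overlapped the promoter of FPS1, a glycerol channel gene. The summit was at -597 bp for RPL15B (fold 1.57), -688 bp for RPL21B (1.62) and -565 bp for RPL1A (1.51), whose protein forms the mobile stalk beside the exit site. RPL1A, RPL8B and RPL15B were also the genes with a promoter peak in eaf1Δ and none in wild type. No large-subunit gene had a summit in its promoter in eaf1Δ and not in wild type.

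The highest wild-type folds without an eaf1Δ promoter peak were those of RPL42B (5.89), RPL24B (5.22), RPL11A (4.81), RPL37A (4.71), RPL42A (4.59), RPL33A (4.35), RPL23B (4.29), RPL24A and RPL30 (4.09, a shared peak) and RPL19B (3.82). RPL11A encodes a protein that binds 5S rRNA, and its peak on chromosome XVI (731263–732514) had a fold of 8.40 for yaf9Δ and 6.79 for swr1Δ. RPL30, whose protein regulates the splicing of its own transcript, is divergent from RPL24A. A single peak on chromosome VII (438372–438897 in wild type) overlapped both promoters, with a fold of 8.36 for yaf9Δ and 5.93 for swr1Δ. In all, 64 genes had no eaf1Δ promoter peak, of which 36 had one in wild type, 34 in swr1Δ and 39 in yaf9Δ.

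Set against the promoters with a wild-type peak, the eaf1Δ list held fewer at large-subunit genes than the other mutant lists. Of 50 such large-subunit promoters eaf1Δ had a peak at 14 (28.0%, interval 16.2 to 42.5), swr1Δ at 46 (92.0%, 80.8 to 97.8) and yaf9Δ at 49 (98.0%, 89.4 to 99.9). Over all 781 protein-coding promoters with a wild-type peak the shares were 74.3% for eaf1Δ, 62.5% for swr1Δ and 93.3% for yaf9Δ. Seen from the mutant lists, a wild-type peak was present at 14 of the 17 large-subunit promoters of eaf1Δ (82.4%), 46 of the 49 of swr1Δ (93.9%) and 49 of the 56 of yaf9Δ (87.5%). Of 35 small-subunit promoters with a wild-type peak, eaf1Δ had 12 (34.3%, 19.1 to 52.2) and swr1Δ all 35. At the 731 promoters outside the large-subunit list the order of these mutants was the opposite, with 77.4% for eaf1Δ (74.2 to 80.4) and 60.5% for swr1Δ (56.8 to 64.0).

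Among promoters with a strong wild-type summit, the share with an eaf1Δ peak was higher at large-subunit genes of higher wild-type fold. With a wild-type summit in the promoter and a fold of at least 2, eaf1Δ had a peak at 13 of 32 large-subunit promoters (40.6%, interval 23.7 to 59.4) and 11 of 23 small-subunit promoters (47.8%, 26.8 to 69.4). It had one at 72 of 75 other promoters whose wild-type peak touched no cytosolic ribosomal protein promoter (96.0%, 88.8 to 99.2). With the eaf1Δ summit also required in the promoter, the gap was narrower. These 3 groups then had 13 of 32, 10 of 23 (43.5%) and 54 of 75 (72.0%, 60.4 to 81.8). Counted by eaf1Δ peaks again, at a fold of at least 3 it was 13 of 28 (46.4%), 11 of 22 and 12 of 12. At a fold of at least 4 it was 12 of 18 large-subunit promoters (66.7%, 41.0 to 86.7), and at a fold of at least 5 it was 8 of 9 (88.9%, 51.8 to 99.7). Of the other promoters whose wild-type peak touched no cytosolic ribosomal protein promoter, only 2 and 0 were left at these folds. No gap to them is thus shown for the strongest peaks. With other promoters that share a peak with a cytosolic ribosomal protein gene counted in, the numbers were 79 of 96 (82.3%) at a fold of at least 2, 18 of 30 (interval 40.6% to 77.3%) at 3, 8 of 18 (44.4%, 21.5 to 69.2) at 4 and 4 of 6 at 5. All but 2 of those 18 have a wild-type peak that also lies at a cytosolic ribosomal protein promoter, so this count does not compare them with unrelated promoters. By eaf1Δ summits in the promoter, the wider set had 61 of 96 at a fold of at least 2 (63.5%, interval 53.1 to 73.1). This interval overlapped the large-subunit one.

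Some large-subunit promoters had a strong summit in yaf9Δ and swr1Δ but in wild type were covered by a wide peak with its summit elsewhere, and these genes too are named after their values were seen. The wild-type fold of such a peak belongs to its summit, and since signal tracks were not used here, the wild-type enrichment at these promoters themselves is not known. Of 36 genes with a summit in the promoter of fold at least 4 in yaf9Δ and at least 3 in swr1Δ, 31 had a wild-type summit in the promoter and 5 did not. No wild-type summit in the promoter was found at 6 of 29 small-subunit genes and 46 of 100 other genes of such folds, of which 1 and 29 had no wild-type promoter peak at all. RPL39, which encodes a protein lining the exit tunnel, had a fold of 8.25 in yaf9Δ and 5.51 in swr1Δ, with the summit at -242 bp in both. In wild type its promoter was covered by a peak 1731 bp wide (chromosome X, 74260–75990) with the summit at -1524 bp and a fold of 1.48. RPL21A had 8.42 and 6.70 in these mutants at -228 and -233 bp, and 1.66 in wild type with the summit at -865 bp. RPL2A, whose protein lies near the peptidyl transferase centre, had 7.24 and 4.82, and 1.26 in wild type with the summit in the body at 327 bp. RPL17A had 4.32 and 3.19 and RPL17B 6.13 and 4.95, and in wild type they had 1.65 and 1.64 with summits in the body. None of the 5 had an eaf1Δ promoter peak. RPL38 also had a summit in the promoter in yaf9Δ (2.11) and swr1Δ (2.78), and no peak in wild type.

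Most pairs had the same state at the A and B copies in each list, and 9 to 12 of the 35 had a promoter peak at 1 copy only. How often unpaired genes share a state is not given, so this agreement is not shown to be particular to pairs. In wild type both promoters had a peak in 18 of the 35 pairs, exactly 1 in 9 and neither in 8. For yaf9Δ the numbers were 19, 12 and 4, for swr1Δ 16, 11 and 8, and for eaf1Δ 3, 11 and 21. By the place of the summit, 31 of the 35 pairs had the same state in wild type, yaf9Δ and swr1Δ. Of these, 10 had a summit in both promoters, 8 in the promoter of the same single copy and 13 in neither.

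The 8 pairs with the same single copy were RPL11, RPL14, RPL23, RPL35, RPL36, RPL37, RPL40 and RPL41. RPL41A, RPL36A and RPL40B had no peak at promoter or body in any list, beside wild-type folds of 5.89 for RPL41B, 3.72 for RPL36B and 5.08 for RPL40A. RPL35A had 5.02 in wild type (chromosome IV, 117205–117762) and 10.44 and 7.53 in yaf9Δ and swr1Δ, beside no promoter peak at RPL35B. RPL37A had 4.71 in wild type and 8.43 and 7.20 in those mutants, beside none at RPL37B. RPL23B had 4.29, 8.61 and 6.14, beside none at RPL23A. At RPL11B and RPL14B peaks with summits in the body reached the promoter in wild type, with folds of 1.60 and 1.82.

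**Figure D4:**
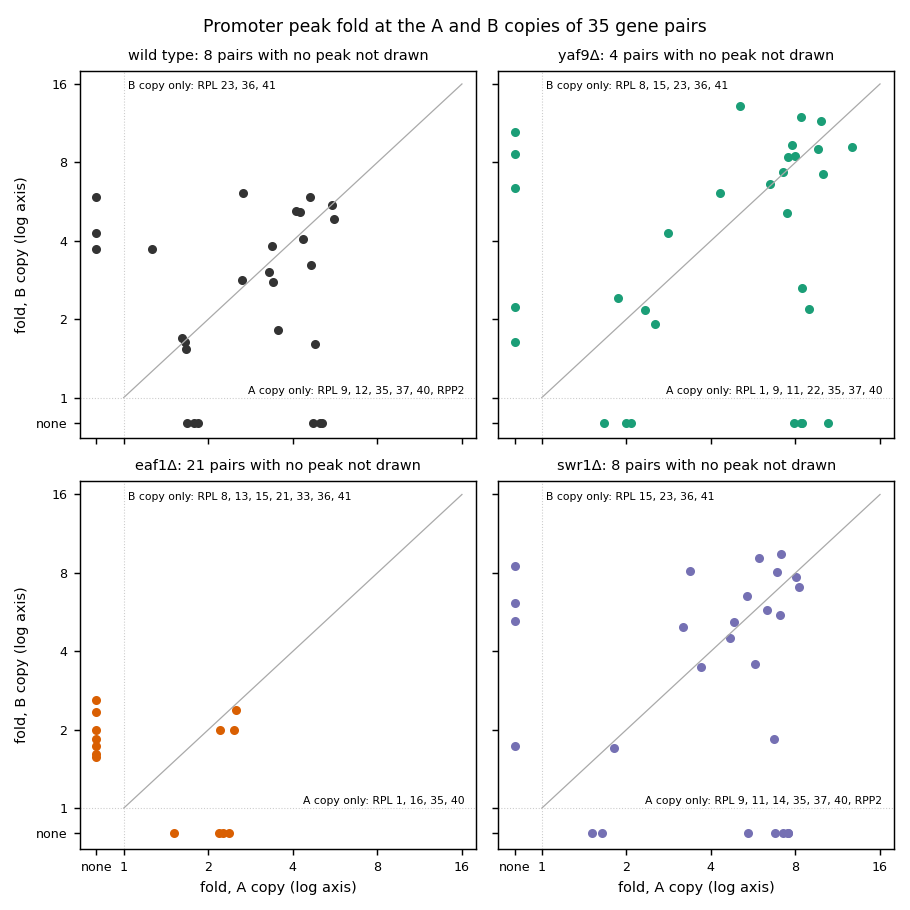
Fold of the highest promoter peak at the A copy (x axis) and the B copy (y axis) of the 35 pairs, both on log scales, 1 panel per list; points on the margin marked none have a peak at 1 copy, and the panel text names those pairs. In eaf1Δ 21 pairs have no peak and 3 have a peak at both copies, against 18 with both in wild type. Fewer genes had a promoter peak in eaf1Δ, 17 against 50 in wild type.

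In the eaf1Δ list fewer pairs had both copies, and fewer genes had a promoter peak at all, 17 against 50 in wild type. The count of pairs depends on that of genes, so it is not a separate result. Of the 11 pairs with a wild-type summit in both promoters, eaf1Δ had one in both for RPL6, RPL20 and RPL31, in 1 for RPL13, RPL16 and RPL33, and in neither for RPL19, RPL26, RPL27, RPL34 and RPL42. RPL13B (6.08 in wild type) had an eaf1Δ peak and RPL13A (2.66) had none. RPL16A (4.63) had one and RPL16B (3.23) had none. At RPL33 it was the copy with the lower wild-type fold, RPL33B (4.07, eaf1Δ 1.85), and not RPL33A (4.35). Of the 9 pairs with a wild-type summit in exactly 1 promoter, eaf1Δ had one at the same copy for RPL35, RPL36, RPL40 and RPL41, and at no copy for RPL2, RPL11, RPL14, RPL23 and RPL37.

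Where both copies had a summit in the promoter, their folds were close. Ratios between unpaired genes are not given, so this closeness is not shown to be particular to pairs. The higher copy exceeded the lower by a median of 1.15 times over 11 wild-type pairs, 1.21 over 13 yaf9Δ pairs, 1.19 over 12 swr1Δ pairs and 1.10 over 3 eaf1Δ pairs. The widest ratio was that of RPL13 in the first 3 of these lists, with 2.29, 2.58 and 2.41. The A copy was higher in 6 of the 11 wild-type pairs, 4 of the 13 from yaf9Δ, 6 of the 12 from swr1Δ and all 3 from eaf1Δ.

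Of the 11 genes present as a single copy, 5 had a promoter peak in wild type, 6 in each of yaf9Δ and swr1Δ, and 0 in eaf1Δ. RPL25, whose protein sits at the exit of the tunnel, had folds of 3.28 in wild type and 7.64 and 5.31 in yaf9Δ and swr1Δ. RPL32 had 2.91, 6.23 and 4.60, and its peak also overlapped the promoter of ROX3, a Mediator subunit gene. RPL29 had 1.61, 1.81 and 1.35, with summits at -85, -87 and -105 bp. No promoter peak was found in any list for RPL3, whose protein reaches towards the peptidyl transferase centre, RPL5, which encodes the partner of 5S rRNA, RPL10, whose protein joins the subunit late, RPL28, altered in cycloheximide-resistant mutants, or RPP0.

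The stalk genes encode the flexible arm that recruits translation factors, with Rpp0 as its base. No stalk gene had a summit in its promoter in any of the 4 lists. With 5 genes this says little, since all promoters had one in 4.73% (wild type), 15.4% (yaf9Δ), 11.7% (eaf1Δ) and 8.06% (swr1Δ) of cases. RPP2A was covered by a wide peak that also overlapped the promoter of RPS15 (chromosome XV, 253155–254640 in wild type), with its summit in the RPP2A body at 210 bp and a fold of 1.84. In yaf9Δ and swr1Δ the fold was 2.52 and 1.64. RPP2B had a promoter peak in yaf9Δ (1.91) with its summit in the body. Summits lay in stalk gene bodies for 3 of the 5 genes in wild type, 5 in yaf9Δ and 2 in each of eaf1Δ and swr1Δ. Over all protein-coding genes the shares were 6.55% (wild type), 48.8% (yaf9Δ), 34.9% (eaf1Δ) and 11.6% (swr1Δ). The eaf1Δ share of stalk genes, 40.0%, was near that of all genes. RPP1A had the highest body fold of the large-subunit genes in wild type (1.99), and RPP1B the highest in eaf1Δ (1.47).

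The share of gene bodies with a summit, like that of promoters with a peak, was above the background in wild type, yaf9Δ and swr1Δ. In eaf1Δ it was below. A wild-type summit lay in the body of 30 of the 81 genes (37.0%, interval 26.6 to 48.5), against 6.55% of all protein-coding genes. For yaf9Δ it was 60 (74.1%, 63.1 to 83.2) against 48.8%, and for swr1Δ 18 (22.2%, 13.7 to 32.8) against 11.6%. For eaf1Δ it was 8 (9.88%, 4.36 to 18.5) against 34.9%. Large-subunit genes are shorter than others, with a median of 795 bp against 1200 bp. Per kb of gene body there were 0.486 wild-type summits at large-subunit genes against 0.0448 over all genes, 0.988 against 0.433 for yaf9Δ, 0.308 against 0.0844 for swr1Δ and 0.130 against 0.273 for eaf1Δ. The fold of body summits was at most 1.99 in wild type, 2.84 in yaf9Δ, 1.80 in swr1Δ and 1.47 in eaf1Δ. Beside body summits of all genes in the same list, their median fold was 1.54 against 1.54 for wild type, 2.01 against 1.88 for yaf9Δ, 1.34 against 1.48 for swr1Δ and 1.34 against 1.83 for eaf1Δ.

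The 8 genes with an eaf1Δ body summit were RPP1B (1.47), RPL14B (1.46), RPL4A (1.44), RPL4B (1.37), RPL24B (1.31), RPL15B (1.28), RPL3 (1.22) and RPP2B (1.20). RPL4A and RPL4B, whose protein extends into the exit tunnel, had their eaf1Δ summit at 98 bp in each copy, where wild type had 102 and 96 bp and swr1Δ 95 and 96 bp. RPL15B alone had both a promoter peak and a body summit in eaf1Δ. Neither was present for 17 genes in wild type, 6 in yaf9Δ, 22 in swr1Δ and 57 in eaf1Δ. RPL22B, RPL36A, RPL40B, RPL41A and RPL43B had neither in any list.

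Body summits of both copies of a pair often lay at matching places. In yaf9Δ both copies had a body summit in 24 pairs. The distance to the annotated end differed between copies by a median of 10 bp, and the distance from the start by 30 bp. Between any 2 large-subunit genes with a yaf9Δ body summit the median difference to the end was 119 bp. At RPL27 the summits lay 694 and 516 bp from the start, and 277 and 278 bp from the end. At RPL35 they were 662 and 579 bp from the start, and 191 and 188 bp from the end. By distance to the end 17 of the 24 pairs were within 30 bp, and RPL4 was the furthest apart, with 199 bp in RPL4A and 992 bp in RPL4B. In wild type 8 pairs had a body summit in both copies, with median differences of 8 bp to the end and 12.5 bp from the start. RPL15A and RPL15B, for example, had theirs 444 and 447 bp from the start. Reads from near-identical copies may have been placed on either, so matching summits do not show that both copies were bound, and this was not tested.

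**Figure D5:**
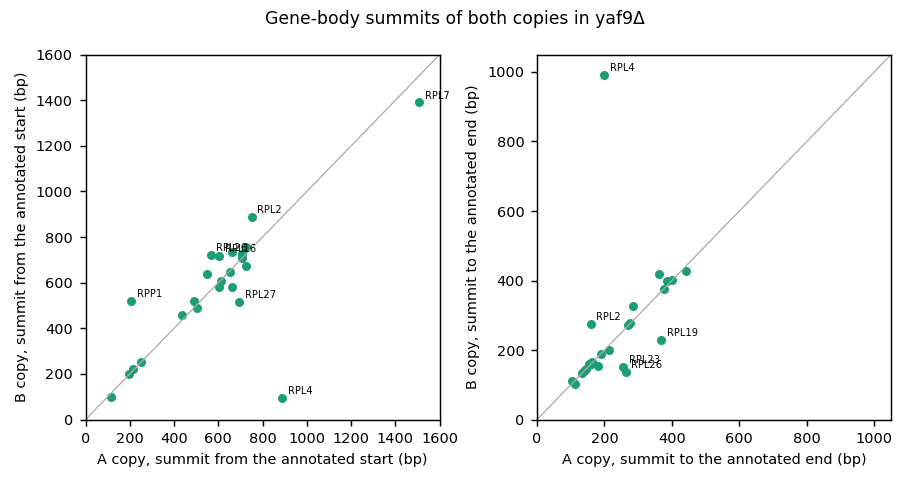
Position of the highest body summit in the A copy (x axis) and the B copy (y axis) of the 24 pairs with one in both copies in yaf9Δ, in bp from the annotated start (left) and to the annotated end (right); the line marks equality, and pairs over 100 bp apart are named. In the right panel 17 of the 24 pairs lie within 30 bp of each other, and RPL4 lies far from the line.

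Body summits of large-subunit genes also lay late in the gene, at a median of 71.9% of its length in yaf9Δ. Beyond the middle of the gene lay 49 of the 60 (81.7%), against 52.7% of yaf9Δ body summits over all genes. In wild type it was 18 of 30, against 36.6%. RPL14A (fold 2.84), RPL14B (2.62) and RPL33A (2.57) had the highest yaf9Δ body folds, with summits 652, 649 and 708 bp from the start. Of the 60 genes with a yaf9Δ body summit 41 had a promoter peak too, and in wild type it was 16 of 30.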

How the data were processed

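Per the submitters' processing notes, reads passed through fastp 0.21.0, BWA 0.7.15-r1140, SAMtools 1.4 and MACS2. Per the labels, both repeats of a tagged strain were merged for each list. Build, control and settings are not stated in what was used here. The deposited lists give each peak's position and summit, a fold (the ratio of pileup to local background), a −log10 q and a score, the last of which was not used. Mitochondrial peaks were left out.

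Gene positions came from RefSeq R64 and strand from the systematic name. No gene coordinate is printed, since the files name no build. As a check, a summit lay within 60 bp of the middle of 34 (wild type), 114 (yaf9Δ), 76 (eaf1Δ) and 112 (swr1Δ) of 275 tRNA genes. A gene's promoter peak was the peak of highest fold overlapping its 500 bp by at least 1 bp. The counting code was tested on simulated peaks. Python 3.11.15, pandas 2.3.3, SciPy 1.17.1 and Matplotlib 3.10.9 were used.

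Genes, lists and alternatives were chosen with earlier results of these data known. The rule named the genes of highest promoter or body fold per list, those with an eaf1Δ fold of at least 2 or an eaf1Δ peak without a wild-type one, the highest wild-type folds without an eaf1Δ peak, pairs with 1 wild-type peak, genes without promoter peaks and the stalk. The text gives a part of these, and genes beyond the rule were chosen after their values were seen. A planned motif search was not run, as promoter sequence was not used here.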

Additional observations from a re-analysis of the deposited data

How the results depend on the processing

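Each list merges its repeats, so leaving out a repeat was not run. No paired analysis was possible because the lists carry no repeat numbers. Requiring −log10 q of at least 5, or leaving out peaks within 100 bp of tRNA genes, moved none of 19 values, each by the limit of 1.5 times for a count or the interval for a share. The eaf1Δ count of promoter peaks, 17 of 81 (21.0% against 35.2% of all promoters), was 10 with fold at least 2, 2 with lists of equal length (625 peaks), 32 with promoters of 1000 bp and 10 with lists of at most 1258 peaks, a setting chosen after the data were seen. That is 12.3%, 2.47%, 39.5% and 12.3% of the genes, against 17.0%, 11.6%, 45.7% and 20.2% of all promoters, in the same order. With promoters of 250 bp it was 13, against 24.0%. It stayed at 17 with −log10 q of at least 5, against 33.1%, and without peaks at tRNA genes, against 33.3%. In both, and in the main setting, the interval (12.7% to 31.5%) lay below the background. Of the settings above that changed the count, the interval lay below the background with 625 peaks only. By summits in the promoter, the share of wild-type promoters with an eaf1Δ counterpart was 39.4%, beside 59.8% outside the large-subunit list. By peaks this share, 28.0%, was 4% at equal length and 45.1% with promoters of 1000 bp, with no background given. That of yaf9Δ was 100% with fold at least 2, promoters of 1000 bp or summits in the promoter, and that of swr1Δ 100% with fold at least 2.

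Summits in the promoter gave 33 genes and 11 pairs with both copies in wild type. Pairs with an eaf1Δ peak at both copies numbered 0 at equal length, 5 with promoters of 1000 bp and 1 with 1258 peaks. Pairs with exactly 1 numbered 6 with fold at least 2, 2 at equal length, 19 with promoters of 1000 bp, and 7 with promoters of 250 bp or summits. Body summits of fold at least 2 were in 31 genes in yaf9Δ and 0 in wild type, eaf1Δ and swr1Δ. In eaf1Δ body summits were in 0 genes at equal length, 5 without the first 250 bp and 2 with 1258 peaks, and in swr1Δ in 8 at equal length. The causes were not tested. Depth is not known from the lists, and a promoter without a peak may lie just under the calling threshold.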

Other observations

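For 30 of the 50 large-subunit genes with a wild-type promoter peak (interval 45.2% to 73.6%), that peak also overlapped the promoter of another protein-coding gene. Outside the list it was 516 of 731 (70.6%, 67.1 to 73.9), so sharing a peak was no more common at large-subunit genes. RPL13B and RPL13A each shared a wild-type peak with a small-subunit gene, RPS16A and RPS16B, and RPL39 shared one with RPS22A. The peak at RPL26A was the large-subunit promoter peak within 100 bp of a tRNA gene in the wild-type (fold 2.64), yaf9Δ (2.82) and swr1Δ (3.68) lists, and its swr1Δ summit lay at -655 bp.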
